A study of Mus musculus with 20 samples.

Results

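RNA from sorted CD4 single-positive (CD4SP) thymocytes of Id2-/-Id3-/- mice was compared here with that of the CD4SP libraries labelled Id3-/-, groups whose labels differ in Id2. The genes described are the 14428, of 39179 in the deposited table, with at least 10 normalized counts on average in 1 or both of these groups. The series holds 20 samples in 5 groups. Id2-/-Id3-/- CD4SP cells (double knockout, dKO; 3 samples, 8 wk of age) came from Id2 fl/fl Id3 fl/fl mice with an IL7R-Cre allele, which deletes floxed genes from the common lymphoid progenitor on and is itself carried in the Il7r locus. The labelled Id3-/- libraries (3 samples, 8 wk) came from CD4SP cells of mice with the germline Id3-/- allele, so the genotypes as stated also differ in how and when Id3 was deleted. Control CD4SP cells (5 samples, 8 wk) are given as wild type in the labels and as Id3+/- or littermate mice in the study. TFH cells (3 samples) were CD44-high CXCR5+ cells of wild-type spleens after immunization with sheep red blood cells, and the 6 lymphomas arose in Id2-/-Id3-/- mice. All were on the C57BL/6 background, and the thymic sort was for CD4+TCRb+CD8- cells. The table gives 1 average per group and 0 columns of values per library. No difference below therefore has a replicate check, a test or an error, and an average that rests on a single high library of the 3 cannot be recognised. Higher and lower describe these averages alone. Because these are bulk samples, fewer cells of a type cannot be told apart from less RNA per cell.

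E proteins (E2A, encoded by Tcf3; HEB, by Tcf12; E2-2, by Tcf4) are basic helix-loop-helix transcription factors that bind E-box sequences and control nearly every checkpoint of thymocyte development. Id proteins share the helix-loop-helix domain but lack the basic region that contacts DNA, so an E protein paired with an Id protein cannot bind its sites. In the thymus Id3 is induced by TCR signals during positive selection and Id2 appears later, in mature single-positive cells, and both hold E protein activity in check as T cells mature.

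Id2 was the gene that set the groups apart as the labels state. It averaged 6.82 normalized counts in Id2-/-Id3-/- cells, against 1764 in the labelled Id3-/- libraries, 2293 in control cells and 1628 in TFH cells. Id3 went against its label. It averaged 879.7 in Id2-/-Id3-/- cells and 2649.7 in the labelled Id3-/- libraries, above the 1991 of control cells. A value over the whole gene cannot show whether an interrupted allele still yields reads, so the deletion in these libraries is neither shown nor denied by it, and they are called labelled Id3-/- throughout. Among the E protein genes, Tcf4 was lower, at 42.7 in Id2-/-Id3-/- cells against 122 in the labelled Id3-/- libraries, with 252 in control cells. Tcf3 averaged 1856 in dKO against 2881 in labelled Id3-/- cells and Tcf12 1792 in dKO against 2186 in labelled Id3-/- cells, less than 2-fold apart. Lyl1, a helix-loop-helix factor that pairs with E proteins, was higher at 33.8 in dKO against 9.37 in labelled Id3-/- cells. The inhibitor gene Id1 stood at 13.2 in dKO and 13.3 in labelled Id3-/- cells, near the lower limit of the kept genes.

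Of the 14428 genes, 1997 (13.8%) were at least 2-fold higher in Id2-/-Id3-/- cells and 1349 (9.35%) at least 2-fold lower, with 1 normalized count added to each average. At 4-fold these numbers were 779 (5.4%) and 371 (2.57%), and at 8-fold 320 (2.22%) and 138 (0.956%). The median log2 ratio over all kept genes was 0.02, close to 0. The shares depended on the level. Among genes with a larger average of 10 to 30, 29.2% were higher and 15.3% lower, whereas among those at 1000 or more 6.33% were higher and 7.13% lower. Both averages reached 10 in 12614 genes, 1172 were kept through Id2-/-Id3-/- cells alone and 642 through the labelled Id3-/- libraries alone, and such genes lie on that side by construction. Any kept gene with an average under 10 in either group is of this kind, Lyl1, Ascl2, Acvr1, Il10, Itga1 and Cdkn1a among them. At the limit itself, Iqcf5 (9.9951 in Id2-/-Id3-/- cells, listed at 0 in the labelled Id3-/- libraries) and Abcb4 (3.9794 in dKO, 9.9981 in labelled Id3-/-) lay just outside, and Gm18294 (10.0008 in dKO, 1.9779 in labelled Id3-/-) and Slc7a2 (6.5298 in dKO, 10.0028 in labelled Id3-/-) just inside. Protein-coding genes had smaller shares, 12.3% higher and 8.23% lower, than processed pseudogenes, 21.7% and 15.6%.

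**Figure D1:**
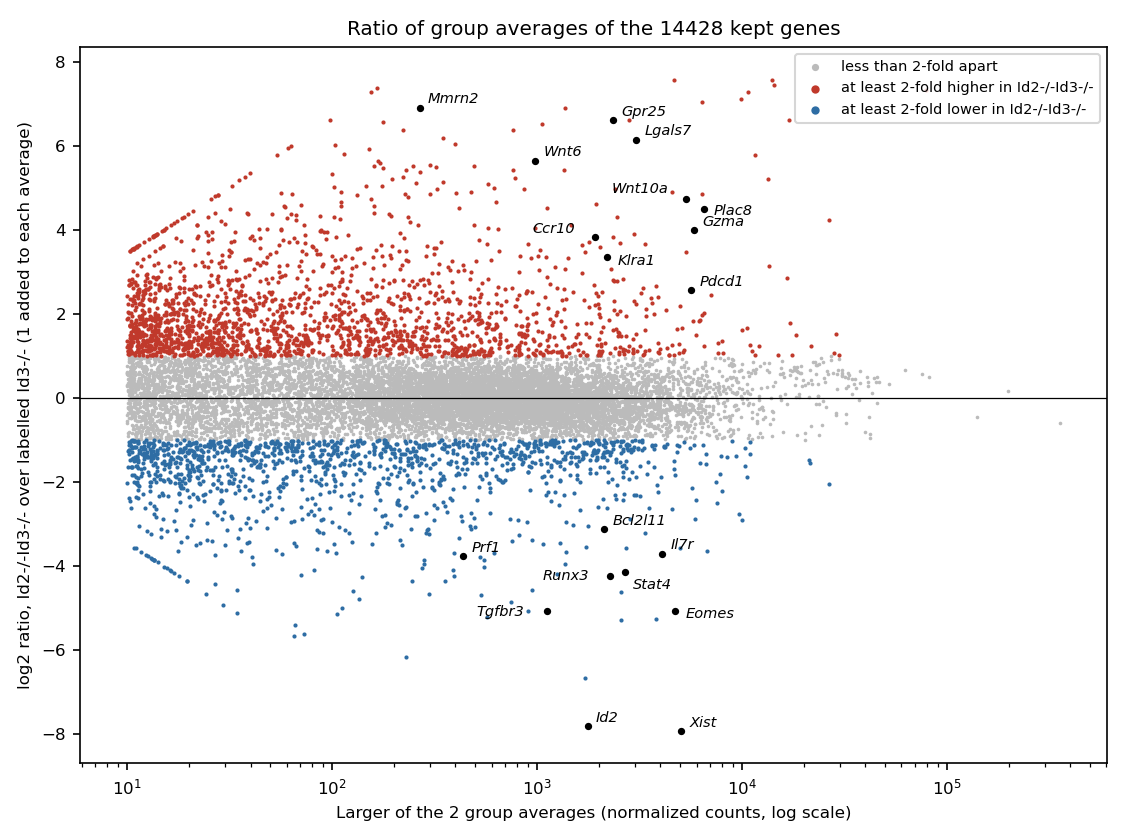
The log2 ratio of Id2-/-Id3-/- to labelled Id3-/- CD4SP averages is plotted against the larger of both averages (normalized counts, log scale) for the 14428 kept genes, with 1 point per gene and no error because the averages carry none. The spread narrows as the level grows, and Gpr25, Lgals7 and Wnt10a at the top and Eomes, Tgfbr3 and Runx3 at the bottom lie far from 0 at high levels.

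To show what E proteins could read at genes on either side of the comparison, the promoters of Id2, of Gzma, which was 15.9-fold higher in Id2-/-Id3-/- cells, and of Prf1, its partner in killing by cytotoxic cells, which was lower, are printed below. Each covers 250 bases before and 50 after the start site in RefSeq (GRCm38.p6), 5' to 3' on the gene's strand, with the E-box letters in capitals, which are CAGCTG or else CACCTG, whose reverse complement is CAGGTG. The motif CAGCTG reads the same on both strands.
Id2, chr12:25096043-25096342, minus strand: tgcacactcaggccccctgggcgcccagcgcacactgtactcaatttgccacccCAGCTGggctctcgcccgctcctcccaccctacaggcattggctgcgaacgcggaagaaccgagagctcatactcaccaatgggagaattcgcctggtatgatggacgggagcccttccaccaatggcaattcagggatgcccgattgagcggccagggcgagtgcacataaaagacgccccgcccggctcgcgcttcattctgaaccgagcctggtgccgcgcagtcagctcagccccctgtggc
Gzma, chr13:113100932-113101231, minus strand: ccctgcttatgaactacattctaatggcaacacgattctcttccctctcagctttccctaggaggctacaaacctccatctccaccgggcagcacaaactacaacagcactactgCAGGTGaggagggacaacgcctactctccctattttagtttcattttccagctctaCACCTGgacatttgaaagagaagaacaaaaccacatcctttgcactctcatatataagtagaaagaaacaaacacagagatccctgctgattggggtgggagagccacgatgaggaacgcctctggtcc
Prf1, chr10:61297586-61297885, plus strand: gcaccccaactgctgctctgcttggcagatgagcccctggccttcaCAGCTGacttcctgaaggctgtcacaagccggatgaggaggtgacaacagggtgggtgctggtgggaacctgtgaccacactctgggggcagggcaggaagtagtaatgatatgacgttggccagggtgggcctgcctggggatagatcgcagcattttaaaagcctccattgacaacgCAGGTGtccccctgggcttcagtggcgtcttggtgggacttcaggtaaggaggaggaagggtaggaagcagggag
Id2 had a single CAGCTG 196 bases before the start. Gzma had CAGGTG 135 and CACCTG 79 bases before it. Prf1 had CAGCTG 204 and CAGGTG 25 bases before it. Over all 32851 such promoters, 16.3% held CAGCTG and 20.2% CACCTG on either strand, and 32.9% held at least 1 of these. The share was 42.4% in the 601 promoters of the 448 matched genes at least 4-fold higher in Id2-/-Id3-/- cells, 34.1% in the 264 promoters of the 213 matched genes at least 4-fold lower, and 31.0% in the 13041 promoters of kept genes. A match of 6 letters is a description and not a bound site, promoters of the same gene can overlap, and no test was made.

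The 15 genes with the highest ratio at an average of 100 or more included 11 with an average below 10 in control cells. Gpr25, an orphan G protein-coupled receptor on chromosome 1, averaged 2353 in Id2-/-Id3-/- cells against 23 in the labelled Id3-/- libraries, with 9.91 in control cells, 23.5 in TFH cells and 1156 in lymphomas. Lgals7, encoding a galectin of stratified epithelia on chromosome 7, averaged 3050.4 in dKO against 41.9 in labelled Id3-/- cells. Wnt6, a secreted WNT ligand on chromosome 1, averaged 981 in dKO against 18.5 in labelled Id3-/- cells. The other protein-coding genes were the extracellular matrix protein gene Mmrn2 (268 dKO against 1.23 labelled Id3-/-), the cation channel gene Trpc1 (222 dKO against 1.66 labelled Id3-/-), Cthrc1 (347 dKO against 3.76 labelled Id3-/-), the cystatin Cst6 (299.7 dKO against 5.44 labelled Id3-/-), the semaphorin Sema6a (248 dKO against 4.40 labelled Id3-/-), the BMP receptor Bmpr1b (172 dKO against 2.57 labelled Id3-/-), Proser2 (399 dKO against 5.06 labelled Id3-/-), Stpg1 (168 dKO against 2.41 labelled Id3-/-) and the translational regulator Cpeb1 (493 dKO against 9.73 labelled Id3-/-). In control cells, each of these 9 averaged less than 10. In lymphomas, Mmrn2 (231), Proser2 (544), Cst6 (413) and Sema6a (236) stood near or above the Id2-/-Id3-/- level, whereas Cthrc1 averaged 5.37 there.

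The other 3 of the 15 were processed pseudogenes, Rps3a2, Rps3a3 and Rpl34-ps1, with log2 ratios of 7.57, 7.28 and 7.04. They copy ribosomal protein genes that are expressed at high levels, and reads of such copies can be divided among them in different ways. Rps3a2 and Rps3a3 together with their parent Rps3a1 summed to 47938 in Id2-/-Id3-/- cells and 42195 in the labelled Id3-/- libraries, while Rps3a1 alone averaged 23249 in dKO and 42054 in labelled Id3-/- cells. The low side shows the mirror image. Rps15a-ps8 and Rps15a-ps5, with log2 ratios of -6.66 and -5.27, summed with Rps15a to 21907 in dKO and 14725 in labelled Id3-/- cells, a log2 ratio of 0.57, and Atp6v0c-ps2 summed with Atp6v0c to 3384 in dKO and 2731 in labelled Id3-/- cells. The ratios of these 6 pseudogenes are therefore uncertain, since the family sums differed far less.

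Among the 15 genes with the lowest ratio, 9, Id2 among them, were not pseudogenes, antibody genes or Xist. Eomes, the T-box factor of memory-like CD8 and NK cells on chromosome 9, averaged 138 in Id2-/-Id3-/- cells and 4727 in the labelled Id3-/- libraries, with only 37.2 in control cells. Tgfbr3, the betaglycan co-receptor for TGF-beta ligands on chromosome 5, averaged 32.1 in dKO against 1123 in labelled Id3-/- cells, and Acvrl1, the type I receptor ALK1 on chromosome 15, 25.5 in dKO against 899 in labelled Id3-/- cells. These receptors differ from Eomes in the control cells, where they averaged 1476 and 1799. Tsc22d3, the glucocorticoid- and FOXO-induced factor GILZ, averaged 103 in dKO against 2578 in labelled Id3-/- cells, with 2437 in control cells. Samd3 (24.7 dKO against 748 labelled Id3-/-), Pxdc1 (2.02 dKO against 106 labelled Id3-/-) and Pdzrn3 (4.22 dKO against 126 labelled Id3-/-) followed Eomes in being low in control cells, at 21.6, 2.53 and 5.92, and Art4 (10.7 dKO against 296 labelled Id3-/-, control 222) followed the receptors. In Id2-/-Id3-/- cells Samd3, Pxdc1 and Pdzrn3 thus lay within 2-fold of the control average, Eomes lay above it with a log2 ratio of 1.87, and Tgfbr3, Acvrl1, Tsc22d3 and Art4 lay below it.

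Xist, the RNA that coats the inactive X chromosome of female cells, had the lowest ratio, at 19.7 in Id2-/-Id3-/- cells against 5060 in the labelled Id3-/- libraries, with 10461 in control cells and 10477 in lymphomas. The Y-linked genes Ddx3y (1478 dKO against 1402 labelled Id3-/-), Uty (284 dKO against 219.5 labelled Id3-/-), Eif2s3y (935 dKO against 656 labelled Id3-/-) and Kdm5d (249.7 dKO against 428 labelled Id3-/-) were all less than 2-fold apart. The labels do not give the sex of the mice. Sex and genotype therefore cannot be told apart in these averages. Among the kept X-linked genes, 15.4% were higher and 8.09% lower, and without chromosomes X and Y 13.8% and 9.38% of the kept genes were.

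Follicular helper T (TFH) cells enter B-cell follicles and help germinal center B cells. Of 25 kept genes of the TFH program, 7 (28.0%) were higher in Id2-/-Id3-/- cells and 7 (28.0%) lower, with a median log2 ratio of 0.10. Over all kept genes these shares were 13.8% and 9.35%, and the list counts below are to be read beside them. Pdcd1, which encodes the inhibitory receptor PD-1, averaged 5668 in dKO cells against 956 in the labelled Id3-/- libraries, 448 in control cells and 5192 in TFH cells, a ratio of 5.92. Cxcr5, the receptor that guides cells to follicles, averaged 2006 in dKO against 451 in labelled Id3-/- cells, with 44.6 in control cells and 9568 in TFH cells. The other 5 higher genes of the list were Slamf6 (3716 dKO against 924 labelled Id3-/-), a receptor for contact with B cells, the HMG-box factor gene Tox2 (1185 dKO against 354 labelled Id3-/-), Cd200 (1029.8 dKO against 419 labelled Id3-/-) and the helper cytokine genes Il21 (419.6 dKO against 139.6 labelled Id3-/-) and Il4 (178 dKO against 64.1 labelled Id3-/-). Bcl6, the repressor that specifies TFH cells, was not among them, at 549 in dKO against 635 in labelled Id3-/- cells with 3543 in TFH cells, nor was Maf, at 417 in dKO against 589.6 in labelled Id3-/- cells with 11057 in TFH cells. Icos (4006 dKO against 3372 labelled Id3-/-) and Batf (539 dKO against 532 labelled Id3-/-) were also less than 2-fold apart. The 7 lower genes included Gpr183, the oxysterol receptor that keeps cells at the follicle border (327 dKO against 1991 labelled Id3-/-), Ccr7, which guides cells to the T zone (2152 dKO against 6269 labelled Id3-/-), Il6ra (335 dKO against 979.8 labelled Id3-/-), Prdm1, which encodes Blimp-1 (32.1 dKO against 94.7 labelled Id3-/-), and the helix-loop-helix factor gene Ascl2 (2.52 dKO against 11.7 labelled Id3-/-).

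Innate-like T cells acquire effector functions in the thymus, and their subsets are told apart by transcription factors. Of 22 kept genes of the list of innate factors, 6 were higher (27.3%) and 7 lower (31.8%), against 13.8% and 9.35% of all kept genes. Zbtb16, which encodes the innate T-cell factor PLZF, averaged 3912 in Id2-/-Id3-/- cells against 733 in the labelled Id3-/- libraries, 116 in control cells and 48.2 in TFH cells. Plac8 averaged 6501 in dKO against 285 in labelled Id3-/- cells, with 4066 in lymphomas, and Sox13, known from gamma-delta T cells, 778 in dKO against 169 in labelled Id3-/- cells. Il17rb, the IL-25 receptor of PLZF-expressing subsets, averaged 2379.8 in dKO against 483 in labelled Id3-/- cells, Myb 6351 in dKO against 1614 in labelled Id3-/- cells and Egr2 3379 in dKO against 1094 in labelled Id3-/- cells. Other members of the list had the opposite order. Beside Eomes, Runx3, which silences Cd4 in CD8 T cells, averaged 118 in dKO against 2261 in labelled Id3-/- cells, Zfp683, the Hobit gene of tissue-resident cells, 20.6 in dKO against 181 in labelled Id3-/- cells, Tbx21, the type 1 factor gene T-bet, 22.5 in dKO against 88.2 in labelled Id3-/- cells and Ikzf3 1236 in dKO against 2864 in labelled Id3-/- cells. Il2rb, the shared receptor chain for IL-2 and IL-15, averaged 1849 in dKO against 7477 in labelled Id3-/- cells. Eomes, Zfp683 and Il2rb were higher in the labelled Id3-/- libraries than in control cells (37.2, 73.0 and 1559), whereas Runx3 averaged 1154 in control cells, between both groups.

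**Figure D2:**
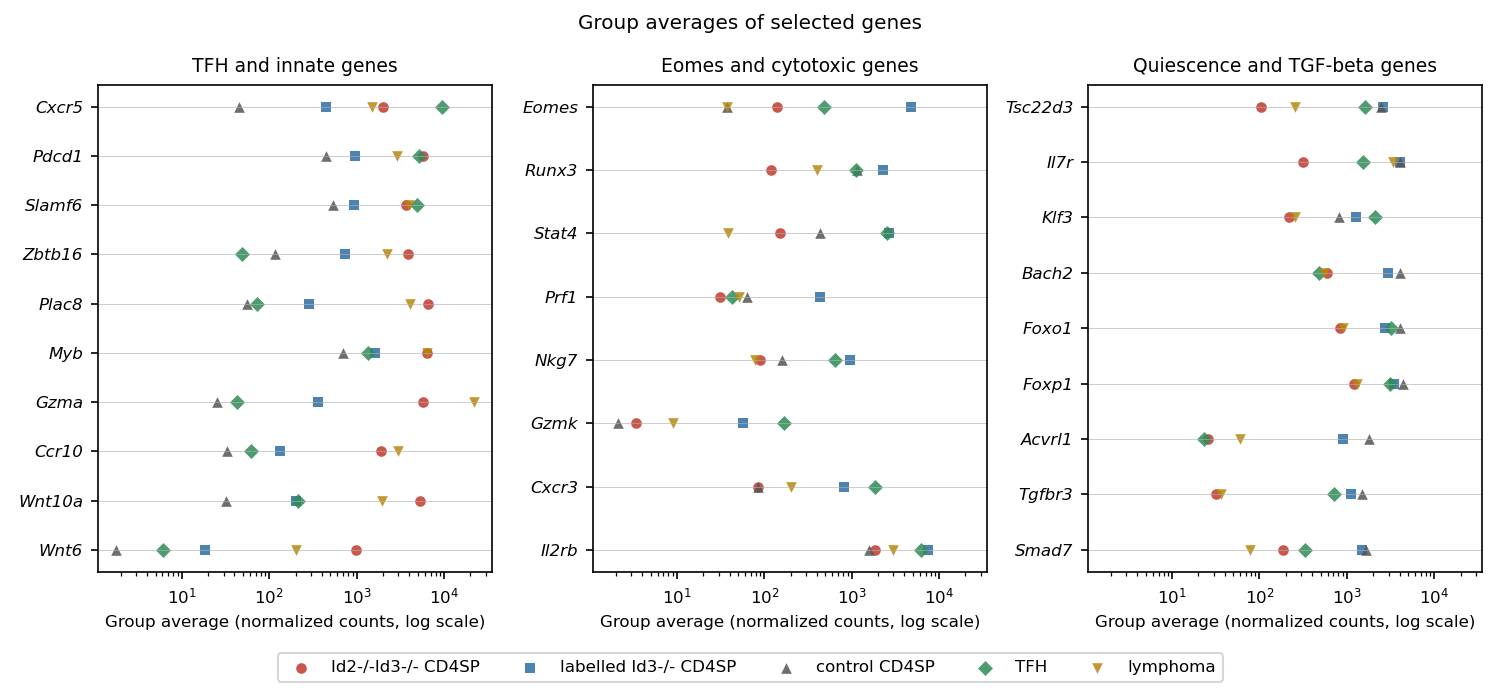
Group averages (normalized counts, log scale) of selected genes are shown for the 5 groups, with 1 point per group and no error because only averages exist. In the left panel the Id2-/-Id3-/- points lie to the right of the labelled Id3-/- points for all 10 genes, and in the middle and right panels they lie to the left of them for all 17, with the lymphoma points often near those of Id2-/-Id3-/- cells. The genes were selected with results of these data known, so a shared direction within a panel is not a finding.

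Genes of cytotoxic and NK cells also divided by member. Of 16 kept NK receptor and adaptor genes, 7 were higher (43.75%) and 4 lower (25%), against 13.8% and 9.35% of all kept genes. Their median log2 ratio was 0.95, and 6 of the 16 were kept through a single group. Fcer1g, the gamma chain that couples activating receptors to signaling, averaged 269 in Id2-/-Id3-/- cells against 5.45 in the labelled Id3-/- libraries. The Ly49 receptor genes Klra1 (2194 dKO against 214 labelled Id3-/-), Klra9 (613 dKO against 18.1 labelled Id3-/-) and Klra3 (281 dKO against 43.0 labelled Id3-/-) and the lectin-like Klrb1a (240.1 dKO against 12.2 labelled Id3-/-) were likewise higher. Ly49 genes are a family of close copies, so the division of reads among them is uncertain. Klra8 (4.69 dKO against 25.5 labelled Id3-/-) and Tyrobp, which encodes the adaptor DAP12 of many activating receptors (3.35 dKO against 14.4 labelled Id3-/-), were lower, as was Cd226, the adhesion receptor DNAM-1 (35.2 dKO against 253 labelled Id3-/-).

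Of 11 kept genes of cytotoxic granules, 2 were higher (18.2%) and 5 lower (45.5%), against 13.8% and 9.35% of all kept genes. Gzma, encoding the serine protease granzyme A, averaged 5809 in Id2-/-Id3-/- cells against 365 in the labelled Id3-/- libraries, 25.2 in control cells and 21911 in lymphomas, a ratio of 15.9. The granule proteoglycan gene Srgn averaged 4913 in dKO against 2029 in labelled Id3-/- cells. The pore-forming protein gene Prf1 went the other way, with 31.1 in dKO against 434 in labelled Id3-/- cells and 62.6 in control cells. Nkg7 (89.2 dKO against 943 labelled Id3-/-), Gzmk (3.43 dKO against 57.1 labelled Id3-/-), Fasl (14.4 dKO against 79.4 labelled Id3-/-) and Gzmm (6.91 dKO against 31.3 labelled Id3-/-) were also lower. Gzmk and Gzmm were kept through the labelled Id3-/- libraries alone, so their direction was set by the filter. Gzma and Srgn differed in direction from Prf1, Nkg7 and Fasl, which averaged at least 10 in both groups. The 7 markers of CD8 T cells, which include Eomes, Runx3, Nkg7 and Ccl5, summed to 619 in Id2-/-Id3-/- cells, 8499 in the labelled Id3-/- libraries and 2130 in control cells, and 6 of them were lower. Eomes alone made up 4727 of the 8499, so the sum does not by itself show CD8 T cells. The coreceptor genes Cd8a and Cd8b1 are given below. The 6 kept T-cell chemokine genes, Ccl1, Ccl3, Ccl4, Ccl5, Cxcl10 and Xcl1, were all lower, with a median log2 ratio of -2.19 at low levels, and 3 of them were kept through the labelled Id3-/- libraries alone. Ccl4 averaged 3.74 in dKO against 39.8 in labelled Id3-/- cells and Xcl1 11.4 in dKO against 79.0 in labelled Id3-/- cells.

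Receptors that place T cells in tissues differed in both directions. Of 15 kept chemokine receptor genes, 5 were higher (33.3%) and 5 lower (33.3%), against 13.8% and 9.35% of all kept genes. Ccr10, a receptor of skin- and mucosa-homing lymphocytes, averaged 1911 in Id2-/-Id3-/- cells against 134 in the labelled Id3-/- libraries, 32.5 in control cells and 2954 in lymphomas. Ccr9, which responds to thymic and gut CCL25, averaged 7963 in dKO against 3100.3 in labelled Id3-/- cells, and Cxcr4, the receptor for CXCL12 of cortex and marrow, 3377 in dKO against 1544 in labelled Id3-/- cells. The lower receptors included those of inflamed tissue and the medulla. Cxcr3 averaged 83.5 in dKO against 816 in labelled Id3-/- cells and Ccr8 58.6 in dKO against 498 in labelled Id3-/- cells. For Cxcr3 the control average, 85.3, lay near that of Id2-/-Id3-/- cells, and for Ccr8 the control average was 1141. In the list of egress and homing genes, 3 of 17 kept members were higher (17.6%, against 13.8% of all kept genes) and 6 lower (35.3%, against 9.35%). The higher ones were Ccr9, Cxcr4 and the integrin gene Itga1 (12.3 dKO against 2.79 labelled Id3-/-). Among the lower ones were S1pr1, the receptor for exit from the thymus (1053 dKO against 2124 labelled Id3-/-), Itga4 (621 dKO against 1675 labelled Id3-/-) and Plxnd1 (504 dKO against 1457 labelled Id3-/-).

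In the list of factors that keep naive T cells quiescent, members past 2-fold lay on the lower side alone. Several other lists also had 0 members on a side, and all lists were chosen with earlier results of these data known. Of the 19 genes of that list, all of which were kept and in both groups above 10, 10 were lower in Id2-/-Id3-/- cells (52.6%, against 9.35% of all kept genes) and 0 higher, with a median log2 ratio of -1.06. Il7r, encoding the receptor for the survival cytokine IL-7, averaged 311 in Id2-/-Id3-/- cells against 4070.2 in the labelled Id3-/- libraries, 3997 in control cells and 3392 in lymphomas. Because the Cre allele sits in this locus, the effect of the allele and that of the deletions on Il7r cannot be told apart. Foxo1, which drives Il7r and Klf2 in resting cells, averaged 843 in dKO against 2704 in labelled Id3-/- cells, Foxp1 1211 in dKO against 3497 in labelled Id3-/- cells and Foxo3 605 in dKO against 1261 in labelled Id3-/- cells. The Kruppel-like factors Klf3 (219.9 dKO against 1284 labelled Id3-/-), Klf7 (169 dKO against 678 labelled Id3-/-) and Klf6 (337 dKO against 788 labelled Id3-/-), the repressor Bach2 (591 dKO against 2959.6 labelled Id3-/-) and the PI3K inhibitor Pik3ip1 (878 dKO against 2269 labelled Id3-/-) were lower too. Foxo1, Foxp1 and Bach2 averaged 4103, 4343 and 4082 in control cells, so the labelled Id3-/- libraries were the nearer group to control. The list's median log2 ratio to control was -1.12 for Id2-/-Id3-/- cells and 0.01 for the labelled Id3-/- libraries.

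Cytokine genes and their receptors were more often lower than higher. Of 26 kept receptor genes 8 were lower (30.8%, against 9.35% of all kept genes) and 2 higher (7.69%, against 13.8%). Their median log2 ratio was -0.80. Il4ra, the IL-4 and IL-13 receptor chain, averaged 1343 in Id2-/-Id3-/- cells against 7586 in the labelled Id3-/- libraries, with 3182 in control cells. Ifngr1 (650.1 dKO against 2031 labelled Id3-/-), Ifngr2 (238 dKO against 1133 labelled Id3-/-), Il10ra (42.2 dKO against 286 labelled Id3-/-) and Il15ra (54.7 dKO against 145 labelled Id3-/-) were lower as well. Downstream of them Stat4, which carries IL-12 signals, averaged 151 in dKO against 2687 in labelled Id3-/- cells, with 436 in control cells and 2529 in TFH cells. The remaining 18 genes of the JAK-STAT and SOCS list included 2 lower ones, Socs3 (133 dKO against 432 labelled Id3-/-) and Cish (409 dKO against 903 labelled Id3-/-), and a higher one, Socs5 (617 dKO against 229 labelled Id3-/-). Among 16 kept cytokine genes, Csf1, the macrophage growth factor gene, joined Il4 and Il21 on the higher side at 988 in dKO against 244 in labelled Id3-/- cells, and 6 were lower, including Ifng (15.0 dKO against 71.1 labelled Id3-/-), Tnfsf8 (262 dKO against 902 labelled Id3-/-) and Il10 (1.36 dKO against 13.8 labelled Id3-/-). The cytokine shares were 18.75% higher and 37.5% lower, against 13.8% and 9.35% of all kept genes.

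The list of TGF-beta and BMP signaling, a pathway that restrains T cells through its TGF-beta receptors, had 0 higher and 6 lower genes of 25 kept (24.0%, against 9.35% of all kept genes). With 0.1 added in place of 1 a single member was higher, and the BMP receptor gene Bmpr1b, described above as higher, is not in the list. Beside Tgfbr3 and Acvrl1, the inhibitory Smad7 averaged 184 in Id2-/-Id3-/- cells against 1494 in the labelled Id3-/- libraries, with 1652 in control cells. Skil (831 dKO against 2087 labelled Id3-/-), Acvr2a (48.2 dKO against 125 labelled Id3-/-) and Acvr1 (3.92 dKO against 18.5 labelled Id3-/-) completed the 6. Smad7 and Skil are induced by TGF-beta in many cells and feed back on the pathway. In the NOTCH list 5 of 16 were lower (31.25%, against 9.35% of all kept genes) and 2 higher (12.5%, near the 13.8% of all kept genes). Dtx1, a Notch target and regulator, averaged 67.7 in dKO against 1250.4 in labelled Id3-/- cells, with 5615 in TFH cells, Notch1 1627 in dKO against 3623 in labelled Id3-/- cells and Nrarp 40.9 in dKO against 135 in labelled Id3-/- cells. Hes5, another Notch target, was higher at 71.3 in dKO against 16.8 in labelled Id3-/- cells, and the ligand gene Jag2 at 232 in dKO against 82.3 in labelled Id3-/- cells.

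WNT proteins signal through Frizzled receptors. Of 28 kept genes of the pathway, 9 were higher (32.1%) and 5 lower (17.9%), against 13.8% and 9.35% of all kept genes. The 9 higher genes encode ligands or Frizzled receptors, and 4 of them, Fzd8, Fzd3, Wnt10b and Wnt5a, were kept through Id2-/-Id3-/- cells alone, where they are high. With 10 added in place of 1 the higher genes numbered 5, as they did when both averages had to reach 10. Wnt10a averaged 5351 in Id2-/-Id3-/- cells against 201 in the labelled Id3-/- libraries and 32.4 in control cells, and 1963 in lymphomas. The Frizzled receptor genes Fzd6 (199.6 dKO against 27.5 labelled Id3-/-), Fzd7 (109.7 dKO against 15.3 labelled Id3-/-), Fzd10 (105 dKO against 22.1 labelled Id3-/-), Fzd8 (25 dKO against 7.55 labelled Id3-/-) and Fzd3 (10.6 dKO against 1.35 labelled Id3-/-) and the ligand genes Wnt10b (25.6 dKO against 9.88 labelled Id3-/-) and Wnt5a (11.1 dKO against 2.42 labelled Id3-/-) followed with Wnt6. The ubiquitin ligase genes Znrf3 (87.9 dKO against 590.0 labelled Id3-/-) and Rnf43 (35.1 dKO against 211 labelled Id3-/-), which remove Frizzled receptors from the surface, were lower, as were Lrp5 (89.1 dKO against 244 labelled Id3-/-), Wnt5b (5.98 dKO against 22.1 labelled Id3-/-) and the nuclear effector gene Tcf7l2 (8.81 dKO against 70.9 labelled Id3-/-). Of the 28, 6 were kept through a single group.

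Of 26 kept genes of core TCR signaling, 0 were higher, against 13.8% of all kept genes. On the lower side were 3 (11.5%, near the 9.35% of all kept genes), among them Ubash3a, a suppressor of TCR signals (606 dKO against 2311 labelled Id3-/-), and the TEC kinase Txk (484 dKO against 1338 labelled Id3-/-). In the protein tyrosine phosphatase list, 5 of 16 were higher (31.25%, against 13.8% of all kept genes), led by Ptpn5 (2979.7 dKO against 199 labelled Id3-/-) and Ptpn14 (649 dKO against 56.1 labelled Id3-/-), with Ptpn13 (576 dKO against 177 labelled Id3-/-), Ptpn21 (119 dKO against 56.9 labelled Id3-/-) and Ptpn3 (433 dKO against 212 labelled Id3-/-), while Ptpn22, which restrains TCR signals, was lower (1023 dKO against 2173 labelled Id3-/-). Exchange factors that activate RAP1 differed by member. Rapgef4 (15.7 dKO against 274 labelled Id3-/-) and Rasgrp2 (573 dKO against 3533 labelled Id3-/-) were lower and Rapgef3 (147 dKO against 28.2 labelled Id3-/-) was higher, all sensors or transducers of cAMP or calcium signals. In the whole list of RAS, RAP1 and MAPK genes 4 of 33 were higher (12.1%, near the 13.8% of all kept genes) and 8 lower (24.2%, against 9.35%). Among the lower ones were Dusp10 (487 dKO against 2624 labelled Id3-/-) and Gadd45b (38.0 dKO against 209 labelled Id3-/-). Of 22 kept early genes induced through the TCR, 4 were higher (18.2%) and 3 lower (13.6%), not far from the 13.8% and 9.35% of all kept genes. The higher ones were Egr2, Egr3 (548 dKO against 274 labelled Id3-/-), Spry1 (368 dKO against 175 labelled Id3-/-) and Spry2 (144 dKO against 37.9 labelled Id3-/-). The lower ones were Tnfaip3 (713 dKO against 1577 labelled Id3-/-), Irf4 (321 dKO against 744 labelled Id3-/-) and Nr4a2 (28.2 dKO against 80.6 labelled Id3-/-). The 13 kept AP-1 and immediate early genes held 0 higher and 3 lower (23.1%, against 9.35% of all kept genes). The lower ones were Fos (200.3 dKO against 415 labelled Id3-/-), Jun (437 dKO against 916 labelled Id3-/-) and Fosl2 (73.7 dKO against 159 labelled Id3-/-), all just past 2-fold. Costimulatory and checkpoint receptors had 3 higher (14.3%, near the 13.8% of all kept genes) and 6 lower (28.6%, against 9.35%) of 21. Tnfrsf9, which encodes 4-1BB, stood at 2477 in dKO against 898 in labelled Id3-/- cells and the inhibitory receptor Vsir at 710.2 in dKO against 2635 in labelled Id3-/- cells.

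The PI3K, AKT and mTOR pathway links growth factor and TCR signals to metabolism. Of its 38 kept genes 2 were higher (5.26%, below the 13.8% of all kept genes) and 4 lower (10.5%, near the 9.35%). Rps6ka2, an S6 kinase family member, averaged 2336 in Id2-/-Id3-/- cells against 163 in the labelled Id3-/- libraries, with 125 in control cells, and Eif4ebp1, a target of mTORC1, 216 in dKO against 88.9 in labelled Id3-/- cells. Lower members were the adaptor and regulatory subunit genes Pik3ap1 (10.7 dKO against 126 labelled Id3-/-) and Pik3r5 (542 dKO against 2662 labelled Id3-/-), together with Pik3ip1 and Deptor (9.40 dKO against 27.9 labelled Id3-/-). Hif1a averaged 2932 in dKO against 1657 in labelled Id3-/- cells, less than 2-fold apart, and the median log2 ratio of the 18 kept genes of its list was -0.22. Of these 18, Ndrg1 was lower (590.4 dKO against 1477 labelled Id3-/-) and 4 were higher, shares of 5.56% and 22.2% against 9.35% and 13.8% of all kept genes. The higher ones were Vegfa (93.6 dKO against 23.9 labelled Id3-/-), Egln3 (514 dKO against 139 labelled Id3-/-), P4ha2 (154 dKO against 56.5 labelled Id3-/-) and Bnip3 (109.9 dKO against 54.0 labelled Id3-/-). Glycolysis had 2 higher, Slc16a3 (367 dKO against 141 labelled Id3-/-) and Pgam1 (2016 dKO against 935 labelled Id3-/-), and 1 lower, Ldhb (431 dKO against 1209 labelled Id3-/-), of 23. Both shares, 8.70% and 4.35%, were below those of all kept genes. Myc itself averaged 3015 in dKO against 2627 in labelled Id3-/- cells, with 1576 in control cells, and the MYC network and ribosome biogenesis lists had 0 of 10 and 0 of 24 members past 2-fold in either direction. Amino acid and one-carbon genes had 4 higher (20%, against 13.8% of all kept genes) and 0 lower of 20. Among the higher ones were Asns (164 dKO against 25.2 labelled Id3-/-), Mthfd2 (1507 dKO against 617 labelled Id3-/-) and the glutamine carrier gene Slc38a1 (5231 dKO against 2369 labelled Id3-/-).

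**Figure D3:**
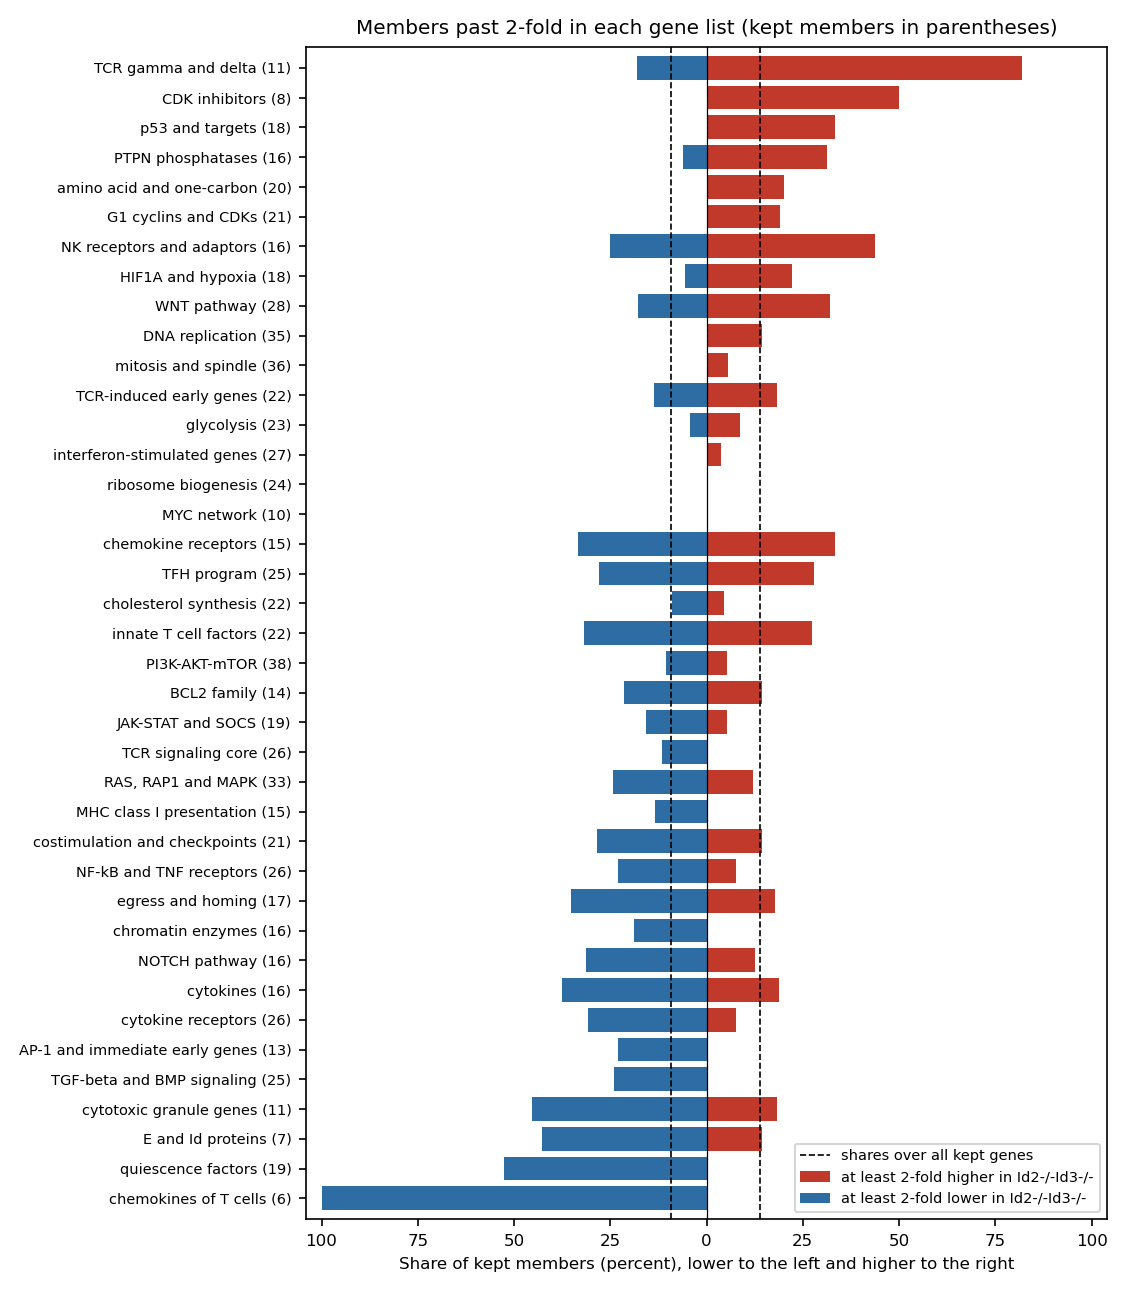
For each of 39 gene lists, the bars give the percent of kept members at least 2-fold higher in Id2-/-Id3-/- CD4SP (to the right) and at least 2-fold lower (to the left) than in labelled Id3-/- CD4SP, with dashed lines at the shares over all kept genes, 13.8% and 9.35%, and no error because only averages exist. Quiescence factors and T-cell chemokines reach far to the left with 0 higher members, TCR gamma and delta genes and CDK inhibitors far to the right, and MYC and ribosome biogenesis lists show 0 on both sides.

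The medians of the cell cycle lists lay above 0, with few members past 2-fold. DNA replication had 5 higher and 0 lower of 35 (14.3%, near the 13.8% over all kept genes), with a median log2 ratio of 0.57. Rrm2, the ribonucleotide reductase subunit of S phase, averaged 2007 in dKO against 759 in labelled Id3-/- cells and Cdc6 448 in dKO against 205 in labelled Id3-/- cells. Mitotic genes had 0 lower and 2 of 36 higher (5.56%, below the 13.8% over all kept genes), Ttk (170.0 dKO against 81.1 labelled Id3-/-) and Ccnb1 (470.3 dKO against 233 labelled Id3-/-), with a median log2 ratio of 0.46. Both were just past 2-fold, and 0 were with 10 added in place of 1. Among G1 cyclins and their kinases 4 of 21 were higher (19.0%, against 13.8% of all kept genes) and 0 lower. The higher ones were Cdc25b (3408 dKO against 784 labelled Id3-/-), Ccne1 (747 dKO against 312 labelled Id3-/-), Ccne2 (261 dKO against 114 labelled Id3-/-) and E2f2 (2041 dKO against 979 labelled Id3-/-). Among CDK inhibitors 0 were lower and 50% higher, against 13.8% of all kept genes. Cdkn2a, the locus of p16 and p19ARF, averaged 192 in Id2-/-Id3-/- cells against 17.3 in the labelled Id3-/- libraries, 2.57 in control cells and 6.01 in lymphomas, and Cdkn2c (814 dKO against 284 labelled Id3-/-), Cdkn1a (33.1 dKO against 9.41 labelled Id3-/-) and Cdkn1c (76.4 dKO against 28.9 labelled Id3-/-) made 4 of 8 higher. A gene average of Cdkn2a does not separate its transcripts. Of 18 kept p53 targets and regulators 0 were lower and 6 higher (33.3%, against 13.8% of all kept genes), among them Pmaip1, which encodes the BH3-only killer NOXA (695 dKO against 115 labelled Id3-/-), Phlda3 (323 dKO against 78.6 labelled Id3-/-) and Ccng1 (3921 dKO against 1877 labelled Id3-/-). In the BCL2 family Pmaip1 and Bik (22.4 dKO against 5.68 labelled Id3-/-) were higher, while the survival genes Bcl2 (1643 dKO against 4672 labelled Id3-/-) and Bcl2l1 (315 dKO against 765 labelled Id3-/-) and the killer gene Bcl2l11, which encodes BIM (244 dKO against 2122 labelled Id3-/-, control 1622), were lower.

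The TCR genes themselves gave a measure of how evenly the repertoire was spread. The effective number of genes, the exponential of the Shannon entropy of their shares, was 10.1 in Id2-/-Id3-/- cells and 15.2 in the labelled Id3-/- libraries over 21 Trbv genes, with 15.5 in control cells and 3.38 in lymphomas. Over 98 Trav genes it was 55.2 in dKO and 71.9 in labelled Id3-/- cells. Over 50 Traj genes it was 19.9 in dKO and 36.4 in labelled Id3-/- cells, from Traj sums of only 321 in dKO and 351 in labelled Id3-/- normalized counts. The averages pool 3 samples each, so use within a mouse may be narrower and is not seen here. The study reports that V-alpha and V-beta use differed between the double knockout mice it examined. A share given below may therefore rest on a single sample. Trbv13-3 took 25.9% of Trbv counts in Id2-/-Id3-/- cells against 5.71% in the labelled Id3-/- libraries and 4.95% in control cells. Trbv13-2 took 25.5% in dKO against 16.4% in labelled Id3-/- cells, while Trbv19 took 2.44% in dKO against 9.68% in labelled Id3-/- cells and Trbv1 3.58% in dKO against 9.05% in labelled Id3-/- cells. Among Trav genes, the near-identical copies Trav9n-3 (8.77% dKO against 1.17% labelled Id3-/-) and Trav9d-3 (7.80% dKO against 0.96% labelled Id3-/-) and Trav8d-2 (4.75% dKO against 0.35% labelled Id3-/-) were the most shifted, and reads between such copies are uncertain. Traj2 took 19.6% in dKO against 3.28% in labelled Id3-/- cells and Traj39 11.0% in dKO against 1.56% in labelled Id3-/- cells, and Traj18, the joining gene of invariant NKT cells, 12.3% in dKO against 6.69% in labelled Id3-/- cells.

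Genes of the gamma chain, which alpha-beta T cells silence or leave unproductive, made up the list with the largest share of higher members of the 39. Of 11 kept TCR gamma and delta genes 9 were higher, all of the gamma locus, and 2 lower, both of the delta locus. Of the 9, 3 were kept through Id2-/-Id3-/- cells alone, and both lower genes were kept through the labelled Id3-/- libraries alone, so the direction of these 5 was set by the filter. When both averages had to reach 10, 6 were higher and 0 lower. Tcrg-C4 averaged 1717 in Id2-/-Id3-/- cells against 152 in the labelled Id3-/- libraries, 39.0 in control cells and 67.5 in lymphomas. Tcrg-C1 averaged 519 in dKO against 126 in labelled Id3-/- cells and Tcrg-C2 561 in dKO against 193 in labelled Id3-/- cells. The constant genes were joined by the variable genes Tcrg-V1 (292 dKO against 22.8 labelled Id3-/-), Trgv2 (206 dKO against 37.3 labelled Id3-/-) and Tcrg-V4 (86.6 dKO against 24.3 labelled Id3-/-), all on chromosome 13. The delta variable genes Trdv2-2 (2.01 dKO against 40.6 labelled Id3-/-) and Trdv1 (2.79 dKO against 13.5 labelled Id3-/-), on chromosome 14 inside the alpha locus, were lower.

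**Figure D4:**
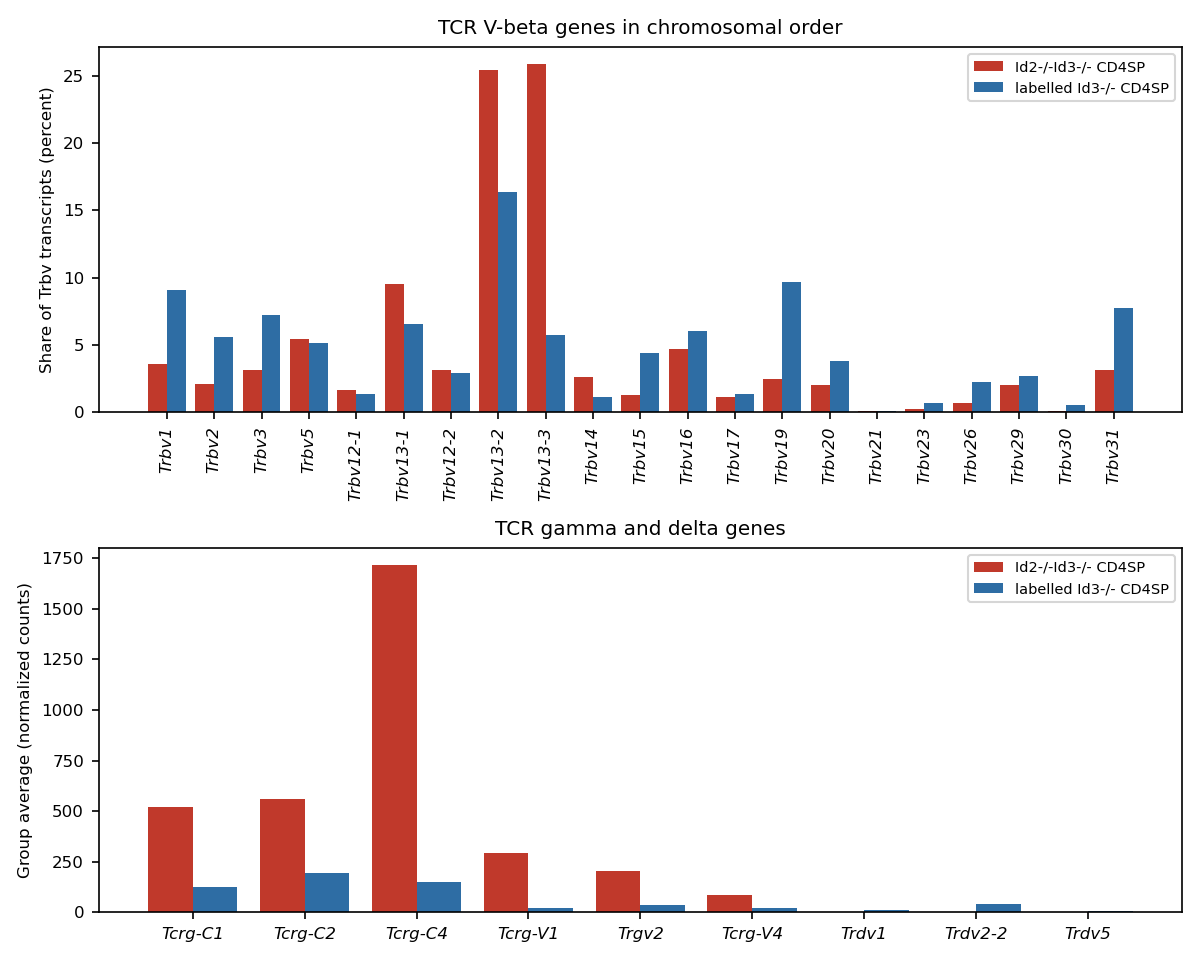
The upper panel gives the share of Trbv transcripts (percent) held by each V-beta gene in chromosomal order, and the lower panel the group averages (normalized counts) of 9 TCR gamma and delta genes, for Id2-/-Id3-/- and labelled Id3-/- CD4SP cells, with no error because only averages exist. Trbv13-2 and Trbv13-3 take the largest shares in Id2-/-Id3-/- cells at 25.5% and 25.9%, and Tcrg-C4 has the largest bar of the gamma genes at 1717 in dKO against 152 in labelled Id3-/- cells.

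Markers of the sorted cells and of others that such a sort could hold were read beside these results. Cd4 averaged 6565 in Id2-/-Id3-/- cells against 12552 in the labelled Id3-/- libraries and 15039 in control cells, Cd3d 10159 in dKO against 7169 in labelled Id3-/- cells and Trbc1 5422 in dKO against 7121 in labelled Id3-/- cells, all less than 2-fold apart. Cd8a stood at 19.2 in dKO against 66.6 in labelled Id3-/- cells, and Cd8b1 at 212 in dKO against 358 in labelled Id3-/- cells. Myeloid markers had sums of 282 in dKO and 330 in labelled Id3-/- cells, with 2 of 10 kept higher and 7 lower, and 7 of the 10 were kept through a single group. Erythroid and platelet markers had sums of 47.5 in dKO and 354 in labelled Id3-/- cells, with 6 of 6 kept lower, and 4 of the 6 were kept through a single group. The myeloid genes Itgam (180.8 dKO against 45.8 labelled Id3-/-) and Flt3 (20.9 dKO against 4.09 labelled Id3-/-) were the higher ones. On the lower side C1qb averaged 1.43 in dKO against 24.5 in labelled Id3-/- cells, Lyz2 7.70 in dKO against 65.1 in labelled Id3-/- cells and Hba-a2 6.06 in dKO against 84.5 in labelled Id3-/- cells. Among antibody constant genes, Igkc was lower, at 170.3 in dKO against 659 in labelled Id3-/- cells. Ighg2c (2.20 dKO against 230.1 labelled Id3-/-, listed at 0 in control cells) and Ighg2b (2.52 dKO against 112 labelled Id3-/-) were lower too. Both were kept through the labelled Id3-/- libraries alone, so their direction was set by the filter. Ighm averaged 7408 in dKO against 3811 in labelled Id3-/- cells, less than 2-fold apart. Of 8 kept germinal center B and plasma cell markers, 3 of them kept through a single group, 3 were higher, Gcsam (37.5 dKO against 4.22 labelled Id3-/-), Mzb1 (24.2 dKO against 6.78 labelled Id3-/-) and Sdc1 (30.9 dKO against 12.3 labelled Id3-/-), and 3 lower, Ighg2b, Irf4 and Jchain (51.5 dKO against 118.1 labelled Id3-/-). Of 12 kept B cell markers, 2 were higher, Fcrla (102.6 dKO against 2.17 labelled Id3-/-) and the B-lineage factor gene Ebf1 (30.02 dKO against 6.00 labelled Id3-/-), and 2 lower, Igkc and the MHC class II gene H2-Aa (28.9 dKO against 85.5 labelled Id3-/-). Of the 12, 3 were kept through a single group. Fcrla and Ebf1 were kept through Id2-/-Id3-/- cells alone, so their direction was set by the filter. Of 13 kept regulatory T cell markers 1 was higher (7.69%, against 13.8% of all kept genes), Izumo1r (17138 dKO against 4948 labelled Id3-/-). On the lower side were 4 (30.8%, against 9.35%), Gpr83, Il10, Tnfrsf4 and Lrrc32, with Il10 kept through the labelled Id3-/- libraries alone. The list's median log2 ratio was -0.78. Of 10 invariant NKT cell markers 3 were higher (30%), Zbtb16, Il4 and Trav11d, and 2 lower (20%), Tbx21 and Cd1d1. Trav11d (32.3 dKO, listed at 0 in labelled Id3-/-) was kept through Id2-/-Id3-/- cells alone, while its close copy Trav11 averaged 99.1 in dKO against 101.6 in labelled Id3-/- cells, so the division of reads between both is uncertain. The part of these cells in the differences above was not tested. Of 2 kept basophil and mast cell markers the histidine decarboxylase gene Hdc was higher, at 1949.7 in dKO against 78.1 in labelled Id3-/- cells (10372 in lymphomas). The receptor gene Kit was lower, at 7.26 in dKO against 23.2 in labelled Id3-/- cells, and was kept through the labelled Id3-/- libraries alone. Of 7 kept thymic epithelial and stromal markers 3 were higher, the epithelial adhesion gene Epcam (593 dKO against 146 labelled Id3-/-), the collagen gene Col1a1 (377 dKO against 45.2 labelled Id3-/-) and the thymoproteasome gene Psmb11 (10.3 dKO against 3.51 labelled Id3-/-), and 1 lower, the endothelial cadherin gene Cdh5 (3.28 dKO against 16.3 labelled Id3-/-). Psmb11 and Cdh5 were each kept through a single group, so their direction was set by the filter.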

How the data were processed

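RNA of 20 mouse samples in 5 groups was sequenced strand-specifically on a HiSeq instrument. The authors aligned reads to mm10 with the OSA algorithm of Array Studio, quantified transcripts by RSEM and normalized counts with DESeq. Tool versions were not given in the sources used here. Each signal value that the authors deposited is the average of DESeq-normalized counts over the samples of each group, so depth per library is unknown and no interval or detection limit could be computed. Nothing in the table shows whether the samples of a group were separate mice. The table also holds the authors' fold changes, p-values and false discovery rates of each group against control CD4SP cells, which were not used. Its 39179 genes were matched by Ensembl ID to GENCODE M21 (GRCm38), 37607 with a symbol. Genes with a larger average of at least 10 in the compared groups were kept, 1 was added to both averages, and 2-fold was the limit for calling a gene higher or lower. Without values per library no model was fitted, and no p-value was computed.

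Named genes are all E and Id protein genes, the 15 highest and 15 lowest by log2 ratio with a larger average of at least 100 (without antigen receptor segments, predicted and small RNA genes) and, in each of 53 lists, up to 6 members with the largest absolute log2 ratio plus those the study names. Other members of the lists past 2-fold and TCR segments were named after their values were seen. A few genes given by the rule are not reported. Members and lists were chosen with earlier results of these data known. Promoter sequences are RefSeq's (GRCm38.p6). The ratio step was checked on simulated data. Alternatives were the added count (0.1 and 10), the minimum (1 and 50, or both averages at 10), rescaling by median, sum or upper quartile, and leaving out chromosomes X and Y or segments, predicted and small RNA genes. Python 3.11.15, numpy 2.4.6, pandas 2.3.3 and matplotlib 3.10.9 were used.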

Additional observations from a re-analysis of the deposited data

How the results depend on the processing

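With a minimum of 50 in place of 10, 1083 genes were at least 2-fold higher in Id2-/-Id3-/- cells and 842 lower, and with a minimum of 1 these were 6365 and 2222. With both averages at 10 or more, 1112 were higher and 917 lower. The higher share of all called genes was 59.7% at the minimum of 10 and 74.1% at the minimum of 1, where the median log2 ratio was 0.23. Adding 10 gave 1368 and 950, and rescaling to the same upper quartile 2159 and 1256, within 1.5 times the counts above. Over 324 named genes and all alternatives, 41 of 3128 values crossed the 2-fold limit and 0 changed direction while past it. A gene that left the kept set under an alternative gave no value there and was not counted as moved. With both averages at 10 or more, 268 values stayed and 1 crossed, and with the minimum of 50, 279 stayed and 2 crossed. Of 528 list medians 11 moved, and of 530 list counts on each side 32 (higher) and 26 (lower) did. No paired analysis was possible because the table holds averages and no values per library, and for the same reason leaving out single samples was not run. Depth and spread between samples, and so the precision of every ratio, are unknown. The sums of the averages, 14293055 in Id2-/-Id3-/- cells and 13940752 in the labelled Id3-/- libraries, are not depths.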

Other observations

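Of 27 kept interferon-stimulated genes 1 was at least 2-fold higher in Id2-/-Id3-/- cells than in the labelled Id3-/- libraries, Oas3, an oligoadenylate synthetase gene (2654 dKO against 1279.6 labelled Id3-/-), and 0 were lower. Of 15 genes of MHC class I presentation 0 were higher and 2 lower (13.3%, against 9.35% of all kept genes). The lower ones were the transactivator Nlrc5 (1182 dKO against 3706 labelled Id3-/-) and the lipid-presenting Cd1d1 (206 dKO against 515 labelled Id3-/-). H2-K1, a classical class I gene, averaged 21786 in dKO against 42313 in labelled Id3-/- cells, just short of 2-fold. Among 16 chromatin enzymes 3 were lower (18.75%, against 9.35% of all kept genes) and 0 higher. The lower ones were the DNA demethylase genes Tet1 (186 dKO against 602 labelled Id3-/-) and Tet3 (1199 dKO against 2763 labelled Id3-/-) and the methyltransferase gene Dnmt3b (74.0 dKO against 181 labelled Id3-/-). Of 26 genes of NF-kB and TNF receptor signaling, 6 were lower (23.1%, against 9.35% of all kept genes), led by Tnfrsf25, which encodes the death receptor DR3 (53.8 dKO against 257 labelled Id3-/-), and 2 higher, Tnfsf14, which encodes LIGHT (535 dKO against 210.3 labelled Id3-/-), and Tnfrsf9. Of 12 stress genes 1 was higher (8.33%, below the 13.8% of all kept genes), Hspb1, at 24.3 in dKO against 0.633 in labelled Id3-/- cells. Hspb1 was kept through Id2-/-Id3-/- cells alone, so its direction was set by the filter. Fos, Jun and Gadd45b were lower (25%, against 9.35%). Of 10 kept markers of double-positive thymocytes, the stage before CD4SP cells, 3 were higher (30%) and 2 lower (20%). The higher ones were Arpp21 (252.1 dKO against 39.5 labelled Id3-/-), the aquaporin gene Aqp11 (327.4 dKO against 125.5 labelled Id3-/-) and the cystine carrier gene Slc7a11 (21.6 dKO against 6.71 labelled Id3-/-). Slc7a11 was kept through Id2-/-Id3-/- cells alone, so its direction was set by the filter. The lower ones were Cd8a and Cd24a (77.3 dKO against 245.5 labelled Id3-/-).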
